A study of Mus musculus with 2 samples.

Results

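The genes described here encode translation initiation factors, the proteins that bring the small ribosomal subunit, the initiator tRNA and the mRNA together at the start codon. They were taken as all genes whose symbol begins with Eif followed by a digit from 1 to 6 and which had at least 1 probe set annotated to that gene alone. This gave 47 genes on 133 probe sets, out of 18194 genes on 34958 such probe sets. The samples were cultures of thioglycolate-elicited peritoneal macrophages, cells that an irritant medium draws into the mouse abdominal cavity. They came from wild type male C57BL6 mice 8 weeks of age. The control culture received no CSF1, and the other was kept for 12 h with 100 ng/ml CSF1 (macrophage colony-stimulating factor, the growth factor that sustains macrophages). RNA of each was hybridised to 1 Affymetrix Mouse Genome 430 2.0 array. With 1 array per group there is no replicate, no difference has a test, and the labels do not say whether both cultures came from the same animals or how many animals were pooled.

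Initiation in eukaryotes runs through a few large assemblies. eIF2 carries the initiator tRNA in its GTP-bound form and is reloaded by the exchange factor eIF2B, while stress-activated kinases phosphorylate eIF2 and thereby block eIF2B. eIF3 is the large scaffold on the small ribosomal subunit. The eIF4 proteins recognise the mRNA cap (eIF4E), bridge it to the ribosome (eIF4G) and unwind the leader (eIF4A, with eIF4B and eIF4H), and the 4E-binding proteins hold eIF4E inactive until the kinase mTORC1 phosphorylates them. Growth factor signalling is known to act on these steps mainly through phosphorylation, which an mRNA array does not measure.

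Of the 47 genes, 46 were above background on both arrays. Background was set at 142 units, the 90th percentile of genes of unrelated tissues. The exception was Eif4a3, whose single probe set annotated to it alone lay below background on both. Each gene is given by its probe set of highest mean log2 signal, and every ratio is log2 of the CSF1 signal divided by the control signal, so a positive value is higher with CSF1. The initiation factors were bright. Their median signal on the control array was 2928 units, against 655 units over all 10953 measured genes, and 29 of the 46 were among the 2739 brightest measured genes. Most differences were small. Of the 46 genes, 35 had a log2 ratio within 0.32 of 0, 7 lay at or beyond that limit on the higher side and 4 on the lower, as did 16.9% and 15.7% of all measured genes. At 1.5-fold, the fold used here to call a gene, Eif4ebp2 was the 1 gene higher and Eif4g3 the 1 gene lower, against 5.85% and 5.33% of all measured genes. None reached 2-fold in either direction, as 0.94% and 0.712% of all measured genes did. In direction, 29 genes were above 0 and 17 below, while 50.2% of all measured genes were above and 49.8% below, and their median was 0.07 against 0.00 over all measured genes. This direction depended on the probe sets used: when each gene was given by the mean of all its probe sets, 19 of 41 were above 0 and the median was -0.04, and with the mean of those above background 25 of 46 and 0.02. In bulk RNA, fewer cells of a type and less RNA per cell cannot be told apart.

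The disagreement between probe sets of one gene was as large as most of these differences. Over the 30 initiation factor genes with at least 2 probe sets above background on both arrays, the pooled SD between probe sets was 0.29 on the log2 scale. In 19 of the 30 the probe sets lay on both sides of 0, in 7 all were above 0 and in 4 all were below. Of all 104 such probe sets, 57 were above 0 and 47 below, so 54.8% were above 0, against 49.4% of probe sets of all genes. The SD between probe sets covers neither cultures nor animals. The other 16 genes have 1 such probe set and no error of this kind.

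**Figure D1:**
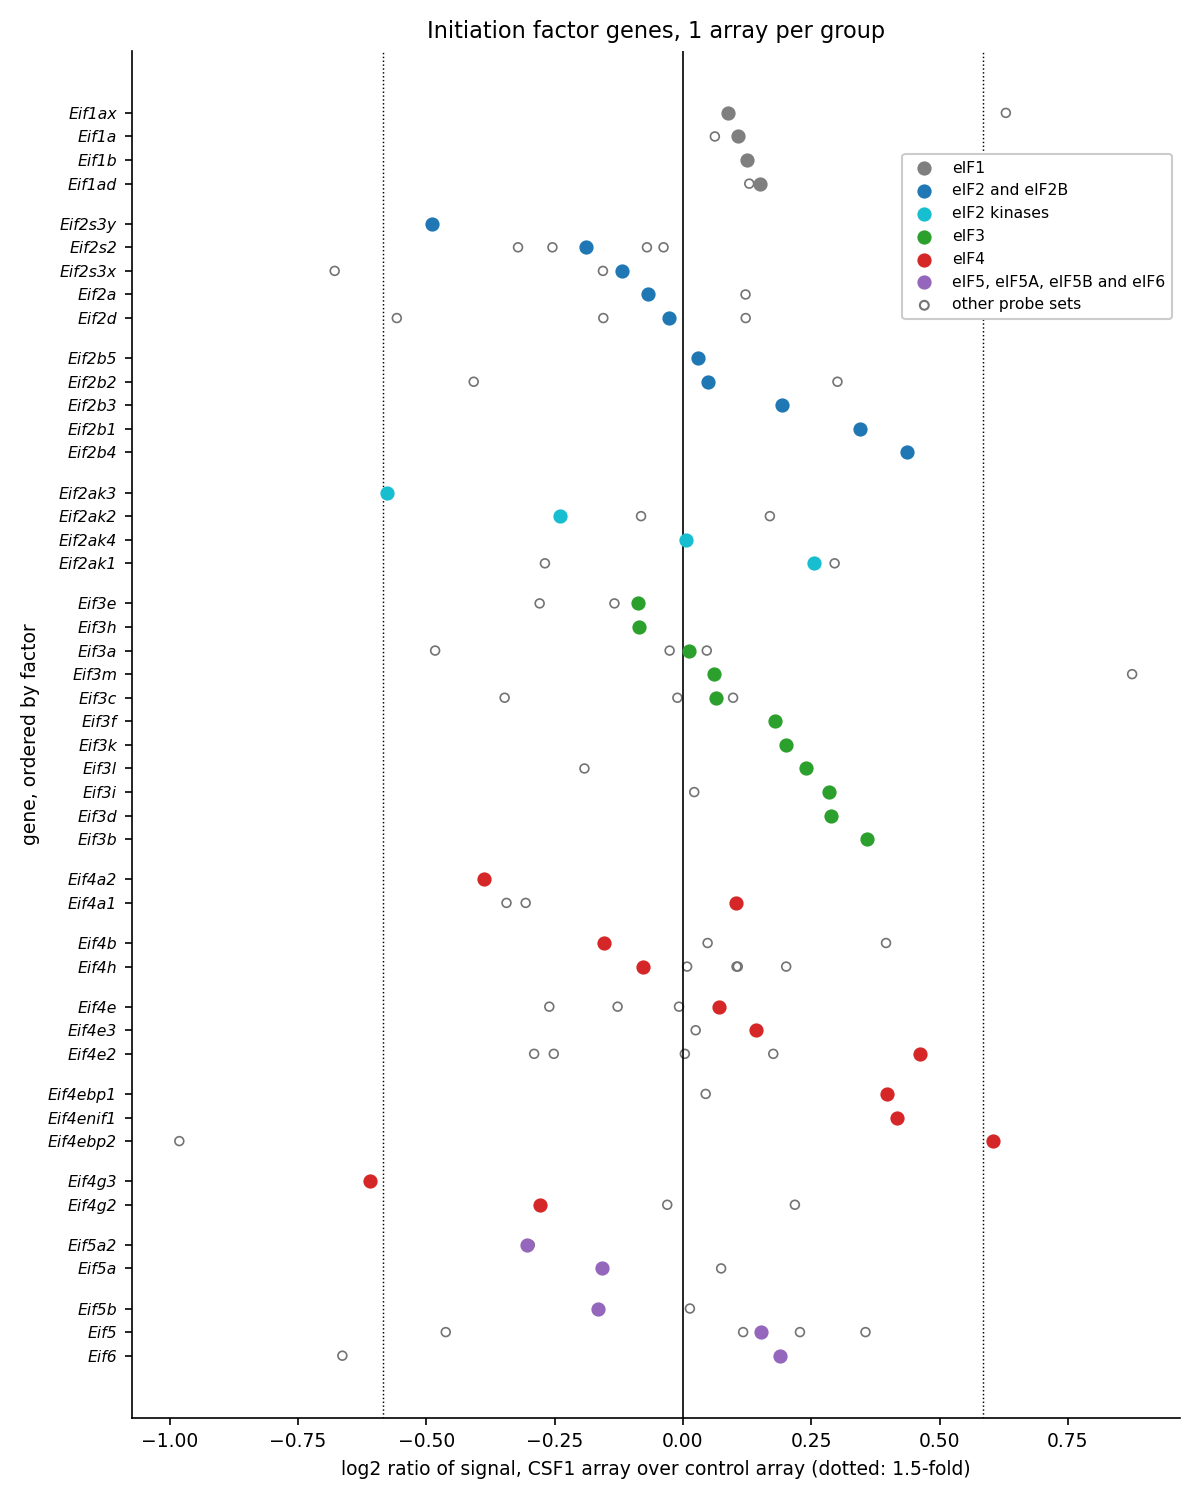
Log2 ratio of signal (CSF1 over control) for the 46 measured initiation factor genes, grouped by factor. Filled points are the brightest probe set of each gene, open points its other probe sets with signal over background throughout, and dotted lines mark 1.5-fold. The 5 eIF2B genes lie above 0 and the 5 genes of eIF2 and initiator tRNA delivery below it, and open points often fall on the other side of 0 from the filled one.

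The eIF2 and eIF2B genes together had a median log2 ratio of 0.00 (10 genes, 5 above 0 and 5 below), with no gene past 1.5-fold. That median joined opposite sides. All 5 genes of eIF2 and of initiator tRNA delivery were below 0, with a median of -0.12, and all 5 eIF2B genes were above 0, with a median of 0.19. The split between them was made after the values were seen. Counted over probe sets of the same arrays, 13 of 15 of the first set were below 0 and 6 of 7 of the eIF2B set above. As the split was drawn from these values, both counts are a description.

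Eif2s2, the beta subunit of eIF2, had 12298.5 units without CSF1 and 10788 units with it. It was 1.14-fold lower, and all 5 probe sets that exceeded background on each array were below 0, with a mean of -0.17 ± 0.12 (SD between probe sets). Eif2s3x, the X-linked gamma subunit, had 7559 and 6964 units and was 1.09-fold lower. Its 3 probe sets were also all below 0, with a mean of -0.32 ± 0.31, and the lowest of them had a log2 ratio of -0.68. Eif2s3y, the Y-linked copy of the gamma subunit gene, was 352 and 251 units, 1.40-fold lower on the 1 probe set above background. The labels give male mice. Eif2a and Eif2d encode single-chain proteins that deliver the initiator tRNA outside the eIF2 complex. Eif2a was 990 and 944 units (log2 ratio -0.07) and Eif2d 692 and 679 units (-0.03). Each had a probe set at 0.12, so their side of 0 was not shared by all probe sets. A further probe set of Eif2d had 827 and 562 units (-0.56), and its 4 probe sets averaged -0.15 ± 0.29.

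The 5 subunits of eIF2B make up a nucleotide exchange factor in which the epsilon subunit Eif2b5 holds the catalytic centre and the alpha, beta and delta subunits sense phosphorylated eIF2. The delta subunit gene Eif2b4 had 594 units on the control array and 804 units with CSF1, 1.35-fold higher. The alpha subunit gene Eif2b1 had 704 and 895 units and was 1.27-fold higher. The gamma subunit gene Eif2b3 had 801 and 915 units and was 1.14-fold higher. The remaining pair lay near 0: the beta subunit gene Eif2b2 had 1890 and 1955 units (log2 ratio 0.05) and Eif2b5 had 839 and 855 units (0.03). Eif2b2 was also the 1 eIF2B gene with several probe sets over background throughout, from -0.41 to 0.30. The other 4 genes of the complex therefore rest on 1 probe set each.

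The kinases that phosphorylate eIF2 went both ways, with a median of -0.12 (2 above 0, 2 below). Eif2ak3, which encodes PERK, the kinase of endoplasmic reticulum stress, had 1312 units on the control array and 880 units with CSF1. This was 1.49-fold lower, just under the fold used to call a gene, and it came to -0.61 after quantile normalization and -0.60 after a loess correction. It had 1 probe set above background on both arrays. Eif2ak2, the double-stranded RNA-activated kinase PKR, had 953 and 808 units and was 1.18-fold lower, but its 3 probe sets averaged -0.05 ± 0.21. Eif2ak1, the haem-regulated kinase, had 624 and 744 units and was 1.19-fold higher, with probe sets from -0.27 to 0.30. Eif2ak4, which encodes GCN2, the kinase of amino acid shortage, had 355 and 357 units.

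Promoter sequences were matched for 38 of the 47 genes in a RefSeq table of build GRCm38.p6, each covering 250 bases before to 50 bases after the outermost transcript start. The letters CCAAT, the box bound by NF-Y, are shown because 3 of the 4 matched eIF2B promoters held them on either strand, as did that of Eif2ak3. They were present in 12 of the 38 promoters (31.6%), and in 38.1% of the 8886 promoters of measured genes, a difference that was not tested. The stretches below are the upstream bases outside any annotated gene, written 5′ to 3′ on the gene's strand in lower case, with CCAAT or its reverse complement in capitals. They lie at chr12:85219231-85219480 (plus strand), chr5:31193140-31193261 (minus strand), chr16:20498567-20498794 (plus strand) and chr6:70844265-70844483 (plus strand).
Eif2b2: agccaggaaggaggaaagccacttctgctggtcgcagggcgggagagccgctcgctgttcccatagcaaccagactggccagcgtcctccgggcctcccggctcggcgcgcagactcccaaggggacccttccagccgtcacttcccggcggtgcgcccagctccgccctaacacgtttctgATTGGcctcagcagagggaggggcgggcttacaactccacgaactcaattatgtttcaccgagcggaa
Eif2b4: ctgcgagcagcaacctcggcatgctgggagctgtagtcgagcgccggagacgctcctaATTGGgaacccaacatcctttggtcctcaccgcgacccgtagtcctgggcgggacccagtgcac
Eif2b5: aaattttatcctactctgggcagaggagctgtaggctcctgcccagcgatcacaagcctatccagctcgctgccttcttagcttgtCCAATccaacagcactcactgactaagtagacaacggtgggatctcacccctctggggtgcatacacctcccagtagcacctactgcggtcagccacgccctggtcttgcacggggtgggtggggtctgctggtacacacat
Eif2ak3: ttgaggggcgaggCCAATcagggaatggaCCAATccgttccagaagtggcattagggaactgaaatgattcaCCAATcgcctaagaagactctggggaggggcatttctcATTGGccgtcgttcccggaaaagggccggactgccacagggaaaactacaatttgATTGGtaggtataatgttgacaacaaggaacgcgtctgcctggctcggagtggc
The stretch of Eif2ak3 held 5 matches and its whole window of 300 bases 6, where 47 of the promoters of measured genes (0.53%) held at least 5. Each of the eIF2B stretches held 1. A match is a description of the letters only.

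Among the other motifs searched on both strands, CCGGAAG, the core of sites for ETS factors, stood in 13 of the 38 promoters (34.2%) and in 18.7% of those of measured genes. All 3 matched eIF1 promoters and 4 of 8 eIF3 promoters had it. CACGTG, the E-box that Myc and Max bind, stood in 7 of 38 (18.4%) and in 10.4% of promoters of measured genes. The 7 were Eif1b, Eif3a, Eif3f, Eif3k, Eif4a1, Eif4h and Eif5a2. TATAAA stood in 3 of 38 (7.89%, against 7.10% of promoters of measured genes), AAGATGGC in 4 (10.5%, against 4.79%), TGATGNAA in 1 (2.63%, against 2.34%), GGGCGG in 28 (73.7%, against 64.3%) and TGACGTCA in none (3.21% of promoters of measured genes). The median log2 ratio of initiation factor genes with and without a motif was 0.15 and -0.05 for CCGGAAG, 0.09 and -0.16 for GGGCGG, 0.17 and 0.01 for CCAAT, 0.10 and 0.05 for CACGTG, 0.18 and 0.05 for TATAAA, and -0.01 and 0.06 for AAGATGGC. Neither shares nor medians were tested, and the median GC content was 61% in both sets of promoters.

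**Figure D2:**
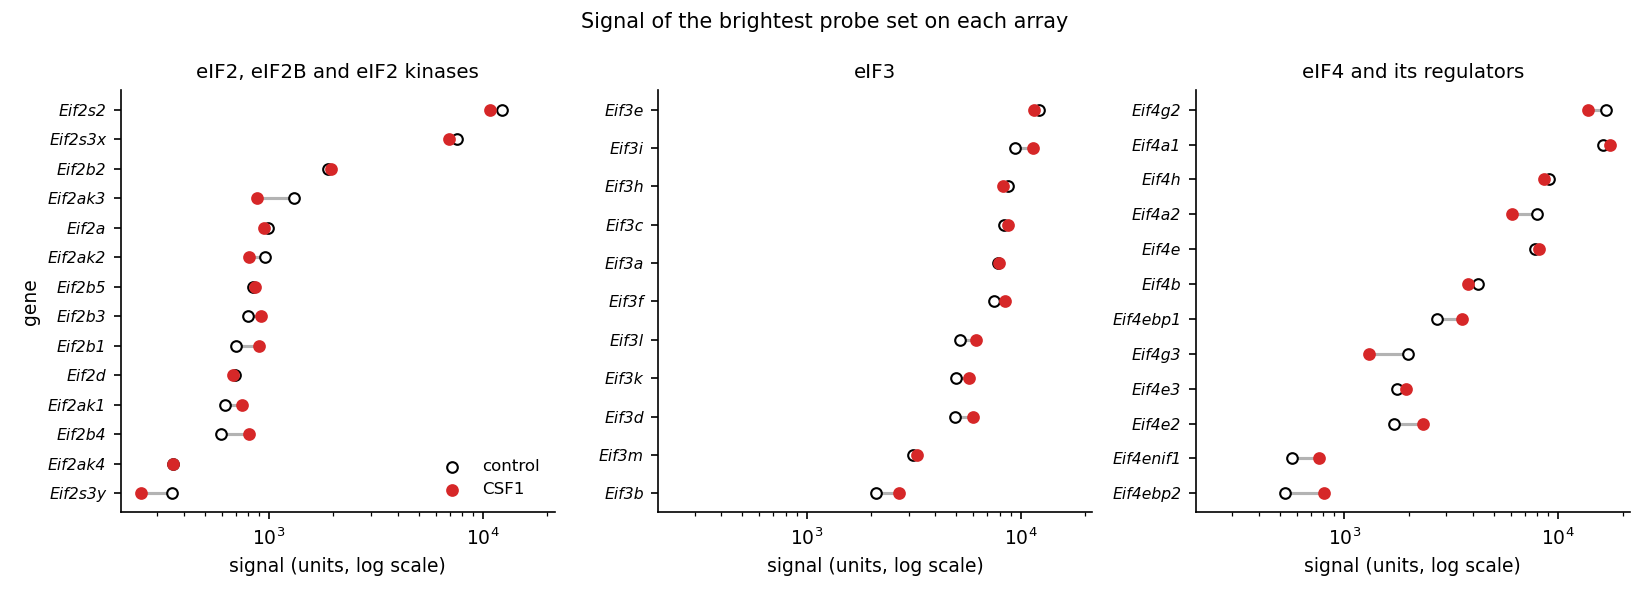
Signal of the brightest probe set of each gene on the control array (open) and the CSF1 array (red), in units on a log axis, for the eIF2, eIF3 and eIF4 genes, with 1 array per group. The eIF3 genes lie between 2099 units (Eif3b, control) and 12248 units (Eif3e, control), while the widest gaps are those of Eif4g3 (1993 to 1306 units), Eif4ebp2 (529 to 803 units) and Eif2ak3 (1312 to 880 units).

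The eIF3 genes were the group most displaced to the side of CSF1 among the 3 large groups. Of 11 genes, 9 were above 0, with a median of 0.18, or 1.13-fold, and none was past 1.5-fold. They ranged from -0.09 (Eif3e) to 0.36 (Eif3b), a narrower range than that of eIF4. Eif3b, a scaffold of the peripheral module of eIF3, had 2099 units on the control array and 2692 units with CSF1, 1.28-fold higher on its single probe set. Eif3d, the cap-binding subunit, had 4933 and 6023 units and was 1.22-fold higher. Eif3i, a WD-repeat partner of Eif3b, had 9405 and 11462 units and was 1.22-fold higher, with a mean of 0.15 ± 0.19 over 2 probe sets. These 3 lie outside the octamer of PCI and MPN domain subunits that forms the body of eIF3, a division applied after the values were seen. The 8 octamer subunits had a median of 0.06, with 6 above 0, against 0.29 for these 3. They are not all the subunits outside the octamer. Eif3g is not analysed, and the probe sets shared by Eif3j1 and Eif3j2, which entered no median, were between 0.036 and 0.085.

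Within the octamer, Eif3l had 5219 and 6166 units (log2 ratio 0.24), Eif3k 4990 and 5737 units (0.20) and Eif3f 7485 and 8473 units (0.18). Eif3l had a further probe set at -0.19. The scaffold subunit gene Eif3a had 7845 and 7908 units and averaged -0.11 ± 0.25 over 4 probe sets, and Eif3c had 8353 and 8730 units and averaged -0.05 ± 0.20 over 4. Eif3m, at 3156 and 3291 units, had a dim second probe set that was 0.88 higher on the log2 scale. The pair below 0 were Eif3e, with 12248 and 11531 units and all 3 probe sets below 0 (mean -0.17 ± 0.10), and Eif3h, with 8755 and 8248 units. Counted over probe sets, 13 of 22 for eIF3 were above 0, with a median of 0.03. The displacement of eIF3 was therefore smaller over all its probe sets than over the brightest one of each gene.

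The eIF4 genes had a median of 0.09 over 12 measured genes, 7 above 0 and 5 below, and were the most dispersed group, from -0.61 to 0.60. Both genes past 1.5-fold were among them. By the brightest probe set, the median was 0.42 for the 4E-binding proteins and the 4E transporter (3 genes, all above 0), 0.14 for the eIF4E genes (3, all above 0), -0.14 for the eIF4A genes (2, on opposite sides of 0), -0.12 for Eif4b and Eif4h (both below 0) and -0.44 for the eIF4G genes (2, both below 0). These medians depended on the probe sets used and, for eIF4A, on the background level too. Over the alternatives tried they ranged from 0.10 to 0.43 for the 4E-binding set, from 0.01 to 0.15 for eIF4E, from -0.38 to -0.09 for eIF4A, from -0.13 to 0.08 for Eif4b and Eif4h and from -0.45 to -0.23 for eIF4G. The -0.38 of eIF4A came with no background level, which takes in Eif4a3. Counted over all probe sets above background, the median was 0.00 for eIF4E and 0.08 for Eif4b and Eif4h. Without the 4E-binding proteins and the transporter, the median of eIF4 was -0.08.

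Eif4ebp2, a repressor that binds eIF4E, had 529 units on the control array and 803 units with CSF1, 1.52-fold higher. Its other probe set above background on both arrays went the opposite way, from 387 to 196 units, a log2 ratio of -0.98. The mean of both was -0.19 ± 1.12, so the call rests on the choice of probe set, and the direction differed between them. Eif4ebp1, the best-known target of mTORC1 in this family, had 2700 and 3557 units and was 1.32-fold higher, though the suffix (x) of this probe set marks possible cross-matches. On the brighter of its probe sets without a suffix it had 2465 and 2542 units, a log2 ratio of 0.04, and the other went from 213 units to below background. Eif4enif1, which carries eIF4E into the nucleus and to processing bodies, had 572 and 764 units and was 1.34-fold higher on its single probe set.

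The cap-binding protein gene Eif4e had 7784 units on the control array and 8167 units with CSF1, and averaged -0.08 ± 0.14 over 4 probe sets. Eif4e2, a homologue that represses translation from the cap, had 1702 and 2345 units and was 1.38-fold higher on its brightest probe set, but averaged 0.02 ± 0.31 over 5. Eif4e3, a homologue that binds the cap differently, had 1763 and 1945 units (log2 ratio 0.14). None of the 3 was past 1.5-fold, and the probe sets of Eif4e and Eif4e2 lay on both sides of 0.

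Eif4g3, a scaffold that joins eIF4E to eIF3, had 1993 units on the control array and 1306 units with CSF1, 1.53-fold lower. A further pair of its probe sets was above background on the control array alone, at 217 and 212 units, and at 132 and 69.1 units with CSF1. They point the same way. Eif4g3 stayed past 1.5-fold under every other processing tried except the mean of all its probe sets, which takes in those below background and gave -0.25. Eif4g2, a relative of eIF4G that does not bind eIF4E, had 16690 and 13755 units and was 1.21-fold lower, with a mean of -0.03 ± 0.25 over 3 probe sets. Among the helicases, Eif4a2 had 7981 and 6098 units and was 1.31-fold lower on its single probe set. Eif4a1 had 16274 and 17475 units and a log2 ratio of 0.10 on its brightest probe set, with -0.31 and -0.34 on its other pair. Eif4b (4227 and 3799 units) and Eif4h (9105 and 8625 units), which stimulate the helicase, were below 0 on the brightest probe set and averaged 0.10 ± 0.28 and 0.07 ± 0.11 over all.

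**Figure D3:**
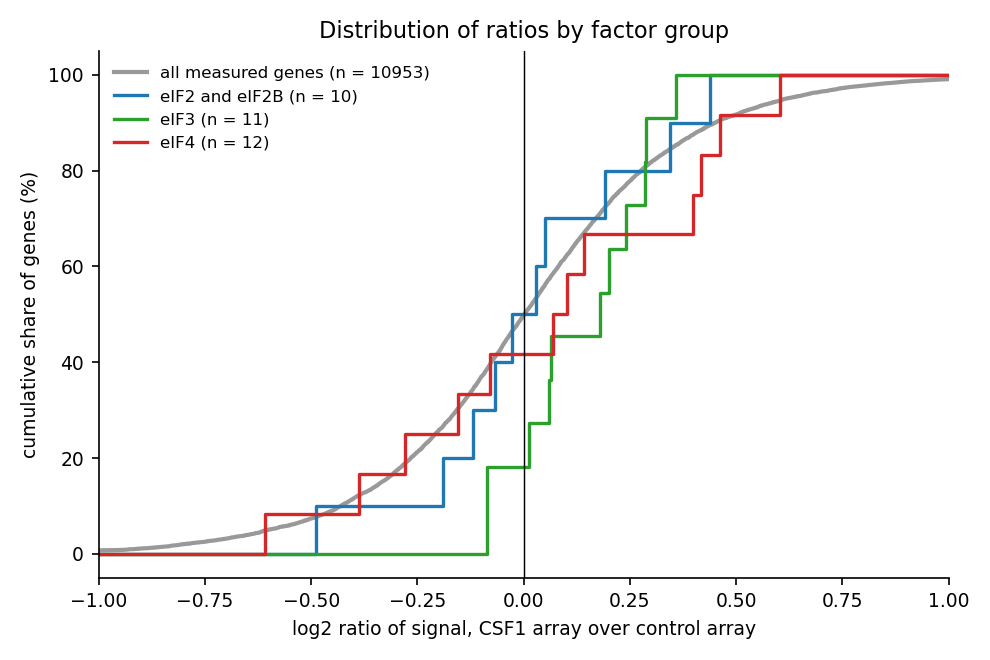
Cumulative share of genes (percent) against the log2 ratio of signal (CSF1 over control), for all 10953 measured genes and for the eIF2 and eIF2B, eIF3 and eIF4 genes. The eIF3 curve starts at -0.09 and stays to the right of the curve of all genes over the negative ratios, that of eIF2 and eIF2B crosses 0 at the middle of its genes, and that of eIF4 spreads from -0.61 to 0.60.

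Set side by side, the median of eIF2 and eIF2B was 0.18 below that of eIF3 (-0.18 as a difference) and 0.09 below that of eIF4 (-0.09), and the median of eIF3 was 0.09 above that of eIF4. Genes of one pair of arrays are not replicates, so these differences have no test. The difference between eIF2 with eIF2B and eIF3 kept its sign under quantile normalization, loess and the other choices of probe set, from -0.27 to -0.15. Centring and the background rules moved all of these genes alike. They left the difference at -0.18 and say nothing about its stability. The difference between eIF2 with eIF2B and eIF4 did not keep its sign, since it ranged from -0.11 to 0.07.

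The 4 measured eIF1 genes were all above 0 within a narrow band, with a median of 0.12. These encode small factors that help the ribosome scan for the start codon, and a relative of them. Eif1a had 3906 and 4206 units, Eif1ax 4237 and 4503 units, Eif1b 1523 and 1661 units and Eif1ad, the relative, 1228 and 1362 units. Their log2 ratios lay between 0.09 (Eif1ax) and 0.15 (Eif1ad), and all 7 probe sets of the group were above 0. A dim second probe set of Eif1ax was at 0.63.

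The genes of the later steps were mixed. Eif5, which triggers GTP hydrolysis by eIF2, had 6530 and 7259 units and averaged 0.08 ± 0.32 over 5 probe sets. Eif5b, the GTPase that joins the ribosomal subunits, had 2224 and 1983 units (log2 ratio -0.17), with a further probe set at 0.01. Eif6, which keeps the large subunit free, had 3989 and 4547 units (0.19), with a dim probe set at -0.66. Eif5a carries the hypusine modification and acts mainly in elongation. It was the brightest gene of the set on the control array, at 18711 units, and had 16775 with CSF1 (-0.16). Eif5a also had a probe set at 0.07. Its homologue Eif5a2, at 328 and 265 units, was 1.24-fold lower, with both probe sets at -0.30.

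The initiation factors are set beside 6 lists of other translation genes, whose medians lay between -0.08 and 0.09. In the list of cap-complex partners and 4E regulators, 6 of 16 were above 0 and 10 below, none past 1.5-fold, with a median of -0.08. Angel1, a relative of the CCR4 deadenylase that binds eIF4E, was at -0.56, with a CSF1 signal of 144 units at the edge of background. Gigyf2, the partner of Eif4e2 in repression, had 699 and 502 units (-0.48), the poly(A)-binding protein inhibitor Paip2 was at -0.20 and the helicase Ddx3x at -0.18.

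Genes of the mTORC1 pathway, which phosphorylates the 4E-binding proteins, were evenly divided, with 9 of 18 above 0 and a median of 0.04. Past 1.5-fold, 2 were higher and 3 lower, as were 5.85% and 5.33% of all measured genes. Inhibitors of the pathway stood on both sides. Ddit4 had 248 units on the control array and was below background with CSF1, so it was at least 1.75-fold lower. Tsc1 had 695 and 419 units, 1.66-fold lower on 1 probe set, while its partner Tsc2 had 531 and 807 units, 1.52-fold higher. Tsc2 falls outside the naming rule and was chosen after its value was seen. Deptor had 560 and 340 units and was 1.65-fold lower, with an SD of 0.24 between 4 probe sets. Castor1, the arginine sensor, had 263 and 400 units and was 1.52-fold higher.

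In the integrated stress response, the programme that follows phosphorylation of eIF2, 6 of 16 genes were above 0 and the median was -0.08. Past 1.5-fold, 2 were higher and none lower, against 5.85% and 5.33% of all measured genes. Ddit3, which encodes the transcription factor CHOP, had 3730 and 5730 units (1.54-fold), and the asparagine synthetase gene Asns 1975 and 3010 units (1.52-fold). Gcn1, the activator of Eif2ak4, had 207 and 144 units (log2 ratio -0.53), the latter at the edge of background. Ppp1r15b, which directs a phosphatase to eIF2, had 2737 and 2015 units (-0.44). The transcription factor gene Atf4 was at 0.11.

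The remaining lists showed small ratios. Of the 6 measured genes listed under ribosome recycling and noncanonical initiation, 2 were above 0, with a median of -0.03. They ranged from -0.22 (Mcts2) to 0.19 (Ltv1). Dap was at -0.16 and the recycling ATPase gene Abce1 at 0.14. Ltv1 and Dap stand in that list but are not established factors of these steps. Of 13 genes listed under elongation and termination, 8 were above 0, with a median of 0.03. There Eef1e1, listed by its name and not itself an elongation factor, was at 0.52. By the brightest probe set, the elongation factor kinase Eef2k was at -0.51, the release factor Etf1 at -0.37 and the elongation factor Eef1a1 at -0.36. Etf1 averaged -0.004 ± 0.23 over 5 probe sets and Eef2k -0.31 ± 0.29 over 2, while Eef1a1 had 1. Among Myc and its partners, 4 of 6 were above 0. Myc had 676 and 895 units (0.40), its antagonist Mxd4 was at 0.57, Max at 0.12, and Mycn, below background with CSF1, was at -0.46 or lower.

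**Figure D4:**
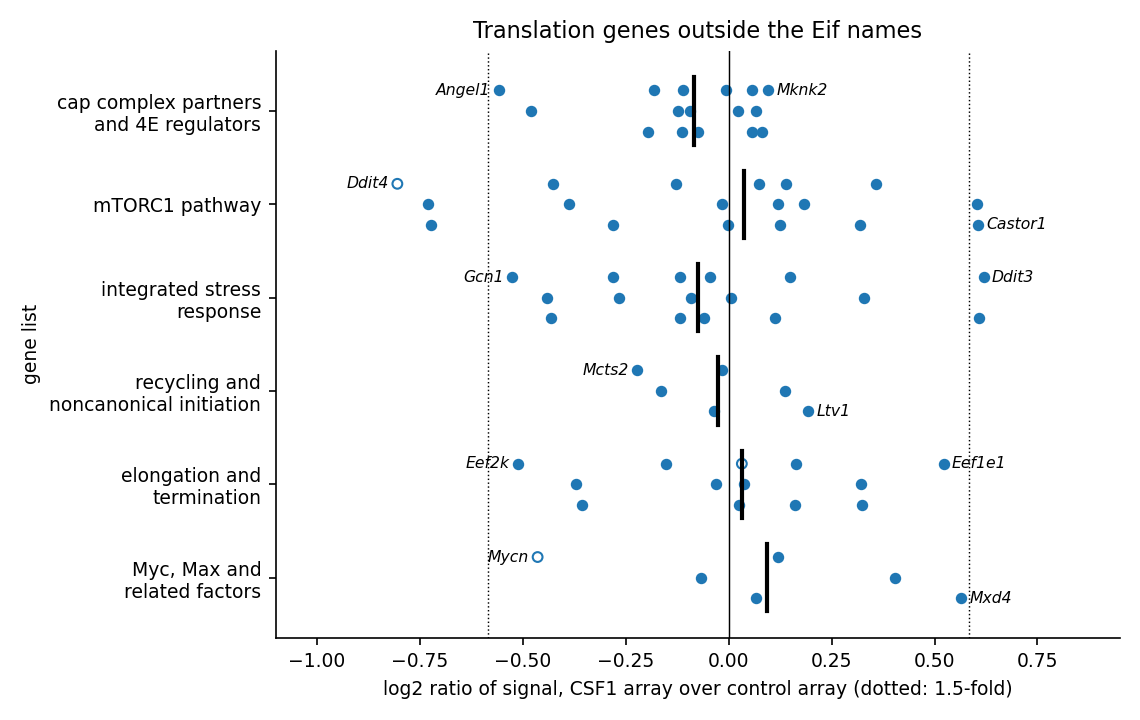
Log2 ratio of signal (CSF1 over control) for the measured genes of 6 lists of translation genes outside the Eif names, with the lowest and highest gene of each list named. Open points are genes at background on 1 array, thick bars are list medians and dotted lines mark 1.5-fold; the medians lie between -0.08 and 0.09.

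The arrays differed in ways that touch these ratios. All 10 macrophage markers were measured, and their signals summed to 153752 units without CSF1 and 132641 with it. Of the 10, 7 were below 0 and 3 above, with a median log2 ratio of -0.16. The gap lay mostly in the bright genes Cd68 (log2 ratio -0.41), Lyz2 (-0.37) and Csf1r (-0.34). Mertk was the lowest, at -0.75, and Itgam (-0.21), Adgre1 (-0.11) and Fcgr1 (-0.03) were also below 0. Marco (0.72), Mrc1 (0.16) and Cd14 (0.05) were higher with CSF1. Of 10 markers of fibroblasts and mesothelium, 8 were measured, with a summed signal of 51378.5 and 64951 units. All 8 were above 0 by the brightest probe set. Over 2 probe sets each, Col1a1 averaged -0.06 ± 0.26 and Pdgfra -0.13 ± 0.63, but Col1a2 0.20 ± 0.03 and Col3a1 0.58 ± 0.27. Col1a2 was at 18991 and 22188 units. Of the mesothelial genes, Msln and Krt19 were not above background. Upk3b was above it with CSF1 alone (31 and 161 units) and Wt1 on both arrays (175 and 195 units). Markers of T and NK cells summed to 7853 and 3534 units. Most of that gap lay in the granzyme genes Gzmb (4266 and 1543 units) and Gzma (1554 and 472 units). Of 7 measured markers of this list, 6 were below 0, with a median log2 ratio of -0.81. Zap70 was at -1.61, with a mean of -0.81 ± 1.14 over 2 probe sets, and Prf1 at -0.81. The T cell genes Cd3g (-0.04) and Cd2 (-0.04) were level and Cd3d (0.35) was higher, while Cd3e and Ncr1 were not above background. No erythroid marker was above background. S100a8 was the 1 neutrophil marker of 8 that was. On at least 1 array, 4 of 6 B cell markers and 4 of 8 eosinophil and mast cell markers exceeded background. Among the latter, Cpa3 (1421 and 1236 units), Cma1 (747 and 560 units) and Siglecf did so on both arrays. Kit did so with CSF1 alone, and Epx, Mcpt4, Ms4a2 and Prg2 on neither. The part of these other cells in the ratios of the initiation factors was not tested. The 3' to 5' signal ratio of Gapdh was 1.03 on the control array and 1.40 with CSF1, and that of Actb 1.35 and 1.38. The hybridisation spikes averaged -0.29 ± 0.13 in log2 ratio (SD over 18 spike probe sets). Centring on them moves every ratio up by the same amount and the median of all measured genes to 0.28. On that scale 41 of the 46 initiation factor genes lay above 0 and 5 below (Eif2ak3, Eif2s3y, Eif4a2, Eif4g3 and Eif5a2), so the directions given above are relative to the other genes of the array.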

How the data were processed

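The deposited values are probe set intensities on a linear scale, made by the authors with Gene spring 6.2, per the labels' design text. How probes were summarized is not stated in those labels. Trimming 2% at each end leaves a mean of 500.003 units on both arrays. Annotation gave 34958 of 45101 probe sets 1 gene symbol, 932 several and 9211 none. Symbols matched RefSeq by Entrez ID except for 204 probe sets, which kept theirs. Eif1, Eif2s1, Eif3g and Eif4g1 are not analysed here.

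The deposited intensity values were raised to a background level of 142 units (the 90th percentile over 139 probe sets for 87 of 98 listed genes specific to other tissues) and moved to log2 values. A gene was measured when 1 array or both exceeded it. A call means at least 1.5-fold, with no test. The members and lists were chosen with earlier results of these data known. Values on both arrays are given for genes past 1.5-fold, the highest and lowest of each group and textbook subunits, and, of each other list, the 4 largest absolute ratios; all other members were then given too. Alternatives were 4 scalings (quantile, median, loess with span 0.3, spikes), 3 background levels, 2 choices of probe set, genes above background on both arrays alone, 2 other folds, and changed group membership. The mean of probe sets above background on both arrays was added after seeing the data. Promoters were searched for 8 motifs. The procedure was tested on simulated data in which bright genes changed 2-fold alike on all their probe sets. That cannot show how reliable smaller ratios are, or ratios of genes whose probe sets disagree. Software was pandas 2.3.3 and numpy 2.4.6 under Python 3.11.15, with statsmodels 0.14.6 and matplotlib 3.10.9.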

Additional observations from a re-analysis of the deposited data

Results flagged for a closer look

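Some probe sets match an initiation factor gene and another gene, so they entered no value above, and 5 of them were above background and higher on the CSF1 array. The probe set shared by Gm5576 and Eif4a3, the helicase of the exon junction complex, had 3481 units on the control array and 4148 units with CSF1, a log2 ratio of 0.25, whereas the probe set annotated to Eif4a3 alone was below background. The 3 probe sets shared by Eif3j1 and Eif3j2, which encode the loosely bound subunit of eIF3, had log2 ratios of 0.085, 0.064 and 0.036. The probe set shared by Ankhd1 and Eif4ebp3, the third 4E-binding protein gene, had 756 and 827 units and a log2 ratio of 0.13. None of these differences has a replicate.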

How the results depend on the processing

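No paired analysis was possible because each group has 1 array. Under alternatives, the all-gene median was set to 0. The choice of probe set mattered most. With the mean of all probe sets, which takes in those below background, 19 of 41 measured members were above 0, their median was -0.037, that of eIF4 -0.17, and the differences of medians became 0.071 (eIF2 and eIF2B minus eIF4) and 0.34 (eIF3 minus eIF4). On probe sets without a suffix letter in their names (a marks several transcripts of a gene, s and x possible cross-matches) the median of eIF4 was -0.023 and that of eIF3 minus eIF4 0.27. Without the 4E-binding proteins and Eif4enif1 the median of eIF4 was -0.078. Counts of genes called are given with the share of all measured genes under the same setting. After quantile normalization 0 of 46 were called higher (5.72%). With the mean of all probe sets 0 of 41 were (6.31%), and with the mean of those above background on both arrays 0 of 46 (4.51%). On probe sets without a suffix 2 of 36 were called higher (Eif4ebp2 and Eif1ax, 6.08%). At a log2 ratio of 0.32 the count was 7 of 46 (16.9%), and at 2-fold 0 (0.94%). Genes called lower numbered 2 of 46 after quantile normalization (5.08%) and after loess (5.15%), Eif4g3 and Eif2ak3 in both. With no background level they were 2 of 47 (Eif4g3 and Eif4a3, 17.9%). On probe sets without a suffix they were 3 of 36 (Eif4g3, Eif2s3x and Eif6, 5.31%). At a log2 ratio of -0.32 the count was 4 of 46 (15.7%), and at 2-fold 0 (0.712%). With the mean of all probe sets 1 gene of 41 was called lower (6.42%), but another one, Eif3e at -0.67, which has -0.09 on its brightest probe set. The median of Eif5, Eif5b and Eif6, 0.15, turned to -0.23 and -0.16 with the mean of all and with those without a suffix, and to -0.081 with the mean of probe sets exceeding background on both arrays, which also turned Eif4b with Eif4h to 0.077 and Eif4ebp2 to -0.19. The eIF3 median stayed between 0.15 and 0.25, that of eIF2B between 0.16 and 0.20, and that of eIF2 with Eif2a and Eif2d between -0.31 and -0.11. Of 46 members, 30 kept their sign under every alternative that gave them a value, and 13 of these 30 were below 0. Those signs are relative to the all-gene median, so centring on the spikes could hardly turn them. On the spike scale without that step, 41 of the 46 members were above 0 and 5 below. The cause of the changes between alternatives was not tested. Genes near background, such as Eif5a2 and Eif2s3y, rest on the least signal.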
